A study of Mus musculus with 12 samples.

Results

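Genes for meiotic entry and for the meiosis-specific cohesin complex were followed in oocytes of newborn mice that lacked a Polycomb repressor. The 7 genes were Stra8, Meioc and Ythdc2, which act at meiotic entry, and Rec8, Rad21l, Smc1b and Stag3, which encode the meiotic cohesin subunits. They were taken by gene name from the 55385 gene models of the table with the PRC2 libraries and the 55401 models of the table with the PRC1 libraries, and all 7 were found once in each. RNA-seq had been made from 12 libraries, 2 in each of 6 groups.

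The PRC2 experiment gave 4 groups, with Eed, a core subunit of Polycomb repressive complex 2, as the target. Control (EedF/+; Ddx4-Cre) and conditional knockout (cKO, EedF/-; Ddx4-Cre) oocytes were taken at a non-growing stage on postnatal day 6 and at a growing stage on postnatal day 7. The PRC1 experiment held growing oocytes of postnatal day 7 only. Its controls were labelled Ring1-/-; Rnf2F/+; Ddx4-Cre, and its cKO libraries Ring1-/-; Ring1F/-; Ddx4-Cre. Every group thus carried Ddx4-Cre, which recombines in germ cells, and both PRC1 groups were labelled null for Ring1. The knockout label repeats Ring1 at the place where the control names Rnf2, the gene of the alternative ubiquitin ligase subunit, so "PRC1 cKO" below means the libraries so labelled. The PRC2 controls, by their label, kept 1 intact Eed allele and the PRC1 controls 1 intact Rnf2 allele. Stage and age changed together, and no label says whether 2 libraries of one group were of different animals. The p-values therefore measure the spread between these libraries, which may be technical.

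Meiosis starts in the fetal ovary. Retinoic acid and BMP signals switch on STRA8, a transcription factor that works with MEIOSIN to start the meiotic programme. MEIOC and the RNA helicase YTHDC2 then bind transcripts together and allow the mitotic programme to end. Cohesin, a ring of SMC1, SMC3 and a kleisin with a STAG protein attached, holds sister chromatids together; in meiosis SMC1B, the kleisins REC8 and RAD21L and the STAG protein STAG3 stand in for SMC1A, RAD21 and STAG1 or STAG2. Oocytes around birth have finished recombination and rest in late prophase, where the cohesion laid down in the fetus has to last until ovulation. Polycomb repressive complex 1 is known to restrain Stra8 in fetal germ cells, and the variant PRC1 complex with E2F6, MGA and MAX is known to occupy promoters of meiotic genes through E2F-type and E-box sequences.

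Stretches near the start of 4 members are printed as examples: Smc1b, Meioc and Stag3, which hold E2F-type letters, and Rad21l, which does not. Stra8 and Rec8, which also lack them, are not printed. The stretches were not cut alike. Those of Smc1b and Rad21l lie next to the start, that of Meioc 250 to 131 bases before it, and that of Stag3 holds only the 27 bases around its match. Their base composition is therefore not compared. The sequences are from RefSeq on GRCm38.p6, each is written 5′ to 3′ on the strand of its gene, and capitals mark the E2F-type letters GCGGGAA or their other strand, TTCCCGC. The Smc1b stretch lies at chr15:85131965-85132077 on the minus strand, the Meioc stretch at chr11:102665335-102665454 on the plus strand, the Stag3 site at chr5:138280496-138280522 on the plus strand, and the Rad21l stretch at chr2:151668534-151668653 on the minus strand.

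Smc1b: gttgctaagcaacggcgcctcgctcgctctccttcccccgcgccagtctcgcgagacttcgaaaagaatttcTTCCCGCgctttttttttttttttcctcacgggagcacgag

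Meioc: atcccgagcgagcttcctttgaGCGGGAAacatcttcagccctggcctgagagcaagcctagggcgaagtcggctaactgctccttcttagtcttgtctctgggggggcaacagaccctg

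Stag3: atcccgtgccTTCCCGCgtttttttct

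Rad21l: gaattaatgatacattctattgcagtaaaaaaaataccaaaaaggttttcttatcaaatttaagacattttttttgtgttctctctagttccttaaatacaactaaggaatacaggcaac

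Promoters of 300 bases, 250 before and 50 after the RefSeq start, were searched on both strands for these letters and for the E-box CACGTG, which reads the same on both. The promoter of Ythdc2 was not examined. Of the other 6 members, 3 held the E2F-type letters, against 4.60% of 32851 mouse promoters. The match began 48 bases before the start in Smc1b, 3 bases before it in Stag3 and 228 bases before it in Meioc, where a GENCODE transcript begins farther upstream and the printed stretch lies in its intron. The E-box was found in Stag3 alone of these 6, 170 bases before the start, against 7.15% of all promoters. Smc1b held 29 CpG dinucleotides, Stag3 30, Meioc 28, Rec8 18 and Stra8 10, against a median of 7 over all promoters, and Rad21l held 2. Some cohesin genes of dividing cells shared these traits. The E2F-type letters were also found in Smc1a and Stag1, though not in Smc3, and these 3 promoters held 23, 43 and 32 CpG dinucleotides. For Stag2 and Rad21 no promoter is given. A match describes letters only and no factor's binding was measured in these libraries. The same Smc1b letters also lie in the promoter of Ribc2, a gene of ciliary microtubules on the opposite strand whose start is 114 bases away.

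Values are TPM, the share of a transcript among all transcripts of its library, corrected for length and scaled to one fixed total. TPM keeps no sequencing depth, so single values carry no counting interval. Whether the libraries of 2 groups overlap is given as a description only. The share of all genes that separate likewise is not given for any comparison, so no such separation is a result about the members. Ratios below are of TPM + 1, and log2 changes are on that scale, on which changes of low genes come out too small. Tests were made with limma over all genes that reached 1 TPM in 2 or more libraries of their table, 14153 genes for PRC2 and 14941 for PRC1. Of the members, 4, Ythdc2, Smc1b, Stag3 and Rad21l, passed this filter in both tables and were at 1 TPM or more in every library, while Stra8, Meioc and Rec8 did not pass in either. Eed, the targeted gene of the PRC2 experiment, was at 10.3 to 12.1 TPM in non-growing cKO libraries against 88.9 and 90.5 TPM in their controls, and at 9.64 and 10.1 TPM against 62.3 and 60.5 TPM in growing oocytes. Ring1 was at 0 to 0.02 TPM in the 4 PRC1 libraries. Rnf2 was at 59.2 and 53.8 TPM in PRC1 controls and at 87.8 and 61.4 TPM in PRC1 cKO, so both libraries labelled cKO were above both controls, the direction opposite to a loss of Rnf2 RNA. The gene-level value can include transcripts that lack only a floxed part. All 12 oocyte markers examined were above 1 TPM in each group, with a zona pellucida gene, Zp3 or Zp2, the highest.

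Among the entry genes, Stra8 was at or near 0 in every group. It was listed at 0 in both control libraries of non-growing oocytes and in both control libraries of growing oocytes of the PRC2 table. The PRC2 cKO libraries were at 0.14 and 0.05 TPM in non-growing and at 0 and 0.28 TPM in growing oocytes, and in the PRC1 table the controls were at 0 and 0.11 TPM and the cKO libraries at 0.03 and 0.06 TPM. The groups of the PRC1 table and the growing groups of the PRC2 table overlapped, and no library reached 1 TPM. A set of 10 genes that every cell uses, such as Actb and Gapdh, was above 0 in all 12 libraries, and each of 79 ribosomal protein genes was above 0 in at least 1 library of each table. The lowest value of the 10 genes was 0.82 TPM in the PRC2 table and 1.85 TPM in the PRC1 table. The lowest ribosomal protein gene reached only 0.98 and 0.59 TPM in its highest library of these tables. These values cannot show whether a gene listed at 0 was absent.

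Meioc (chromosome 11, 102663716 to 102682237) was also low, but its groups did separate. Non-growing control libraries were at 0.55 and 0.35 TPM and non-growing PRC2 cKO libraries at 0.54 and 0.35 TPM. Growing oocytes were lower, at 0.10 and 0.06 TPM in control libraries and 0.05 and 0.16 TPM in PRC2 cKO. In the PRC1 table both controls were at 0.02 TPM and the cKO libraries at 0.87 and 0.81 TPM. The 4 growing libraries of the PRC2 table were all below its 4 non-growing ones, and both PRC1 cKO libraries were above both controls. Meioc missed the filter, so it was not tested with the others. In the alternative fit without a filter its log2 change was 0.85 in PRC1 cKO (limma adjusted p = 0.024), -0.42 from non-growing to growing control oocytes (limma adjusted p = 0.0272) and -0.39 in the PRC2 cKO (limma adjusted p = 0.0391). Of all genes in that fit, 6301 of 32244 passed in PRC1 cKO. With growth 10709 of 30642 passed in controls and 10096 of 30642 in PRC2 cKO.

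Ythdc2 (chromosome 18, 44827746 to 44889724), the helicase partner of MEIOC, kept a steady low level. It was at 4.92 and 5.68 TPM in non-growing control and 5.39 and 4.30 TPM in non-growing PRC2 cKO libraries. Growing libraries were at 6.17 and 6.25 TPM in control libraries and 5.71 and 4.85 TPM in PRC2 cKO. PRC1 control libraries were at 6.32 and 4.60 TPM and PRC1 cKO libraries at 3.65 and 3.96 TPM. Both PRC1 cKO libraries were below both controls, but the log2 change of -0.41 (95% interval -1.04 to 0.21) gave a limma adjusted p of 0.21. It passed with quantile normalization, at -1.14 (limma adjusted p = 0.0284). Meioc and Ythdc2, whose proteins act as a pair, thus stood on opposite sides of their controls in PRC1 cKO, with neither difference called at the deposited scale and with the filter.

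**Figure D1:**
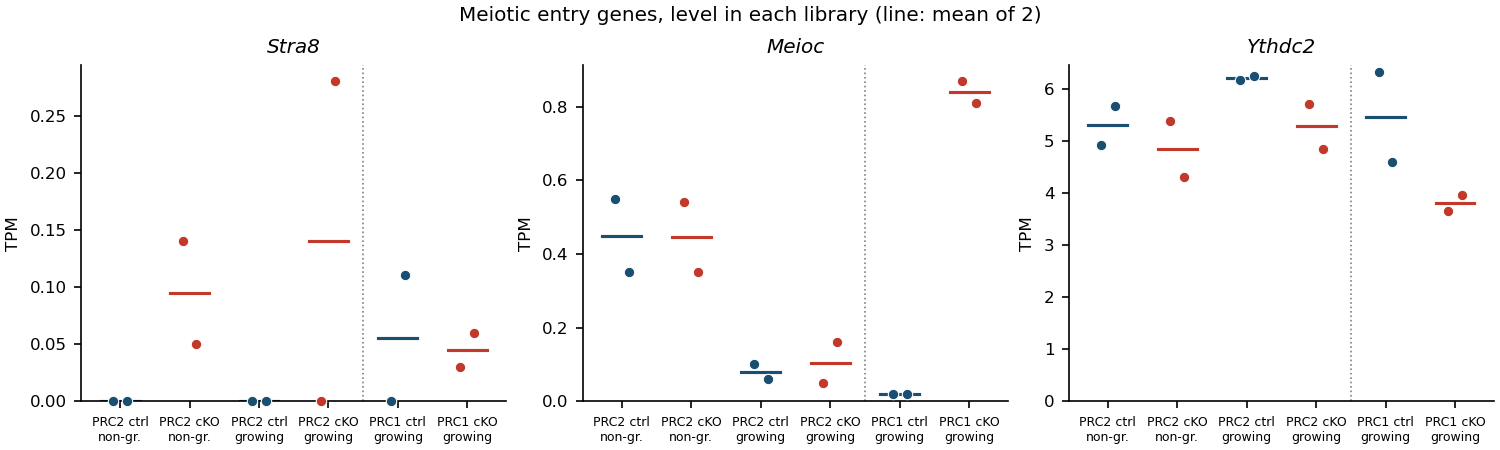
TPM of the 3 meiotic entry genes in each library (points) with the mean of 2 (line), for the 6 groups on the x axis. The dotted line parts the PRC2 table from the PRC1 table, whose levels were normalized separately. Meioc sits at 0.81 and 0.87 TPM in PRC1 cKO and at 0.02 TPM in its controls, while Stra8 stays under 0.3 TPM and Ythdc2 between 3.65 and 6.32 TPM.

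Smc1b (chromosome 15, 85064689 to 85131964, minus strand), the meiotic SMC1, was by far the most abundant member. Non-growing control libraries were at 382 and 371 TPM (mean 376 ± 7.45, SD, n = 2) and non-growing PRC2 cKO libraries at 405 and 380.2 TPM (393 ± 17.6, SD, n = 2). Growing libraries were at 112 and 70.6 TPM in control (91.4 ± 29.4, SD, n = 2) and at 91.7 and 88.4 TPM in PRC2 cKO (90.0 ± 2.37, SD, n = 2). In the PRC1 table the controls were at 85.1 and 90.7 TPM (87.9 ± 3.95, SD, n = 2) and the cKO libraries at 257 and 239 TPM (248 ± 12.9, SD, n = 2). All non-growing libraries were above all growing ones, and both PRC1 cKO libraries were above their controls. Among models at 1 TPM or more in the same library, Smc1b stood above 95.8% to 95.9% in non-growing controls, 84.0% to 89.5% in growing PRC2 controls and 95.3% to 95.7% in PRC1 cKO.

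Stag3 (chromosome 5, 138280240 to 138312393), the meiotic STAG protein that the other meiotic subunits need for stability, was at 10.9 TPM or less. Non-growing libraries were at 4.41 and 3.86 TPM in control libraries and 6.17 and 4.67 TPM in PRC2 cKO. Growing libraries were at 1.52 and 2.64 TPM in control libraries and 2.37 and 4.17 TPM in PRC2 cKO. PRC1 control libraries were at 3.59 and 4.13 TPM and PRC1 cKO libraries at 10.9 and 7.61 TPM. PRC2 cKO was above control without overlap in non-growing oocytes and overlapped it in growing oocytes. PRC1 cKO was above control without overlap. Both separations are descriptions of 2 libraries a group, with no share of all genes beside them.

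Rad21l (chromosome 2, 151645404 to 151668533, minus strand), a kleisin of early prophase with a role in homologue pairing, had the lowest mean of the tested members in every group. Its libraries overlapped those of Stag3 in growing PRC2 cKO and those of Ythdc2 in PRC1 cKO. Non-growing libraries were at 1.57 and 1.05 TPM in control libraries and 1.83 and 1.41 TPM in PRC2 cKO, and growing libraries at 1.44 and 1.25 TPM in control libraries and 2.12 and 2.58 TPM in PRC2 cKO. PRC1 controls were at 1.14 and 1.71 TPM and PRC1 cKO libraries at 4.53 and 2.97 TPM. Knockout and control did not overlap in growing oocytes of either table and overlapped in non-growing oocytes. How many of all genes separated likewise is not given.

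Rec8 (chromosome 14, 55618037 to 55625395), the kleisin that keeps sister chromatids together through the first division, was under 1 TPM throughout. It was listed at 0 in all 4 PRC2 control libraries. PRC2 cKO libraries were at 0.20 and 0.18 TPM in non-growing and 0.03 and 0.09 TPM in growing oocytes, while PRC1 controls were at 0 and 0.04 TPM and PRC1 cKO libraries at 0.75 and 0.40 TPM. Each knockout library was above both of its controls, at levels too low for the filter and with no share of all genes given. In the fit without a filter Rec8 gave a log2 change of 0.62 in PRC1 cKO (limma adjusted p = 0.0539) and of 0.25 in non-growing PRC2 cKO (limma adjusted p = 0.0796). Its fall of 0.17 on the log2 scale from non-growing to growing PRC2 cKO oocytes did pass there (limma adjusted p = 0.0136). In that comparison 10096 of 30642 genes passed without the filter, and all Rec8 values in it were at 0.20 TPM or less.

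**Figure D2:**
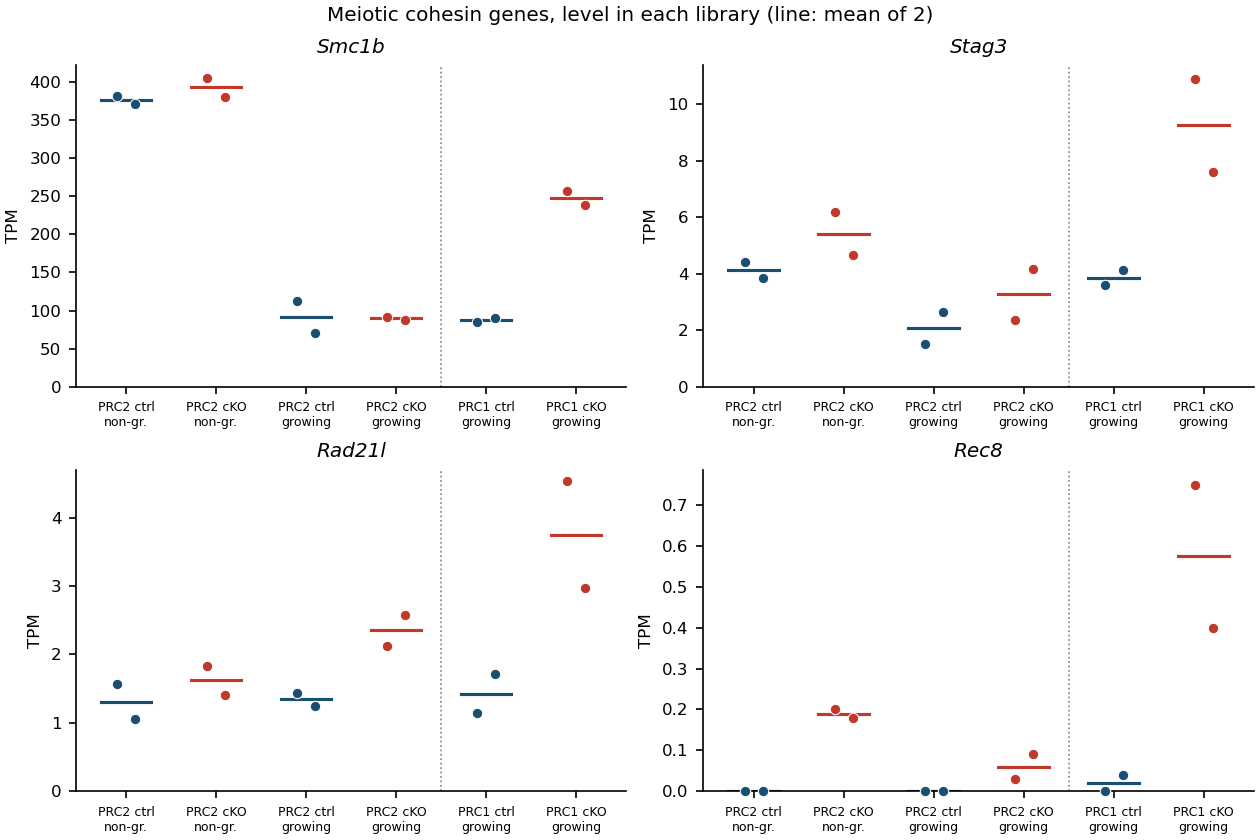
TPM of the 4 meiotic cohesin genes in each library (points) with the mean of 2 (line), for the 6 groups on the x axis and a dotted line between the separately normalized tables. Smc1b drops from 371 to 405 TPM in non-growing to 70.6 to 112 TPM in growing oocytes and reaches 239 and 257 TPM in PRC1 cKO, and Rec8 is at 0 or nearly so outside the knockouts.

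Ordered by level, control oocytes of both stages and both tables had Smc1b first, then Ythdc2, Stag3 and Rad21l, with no overlap between neighbours. Meioc, Stra8 and Rec8 followed. In PRC1 cKO, Stag3 stood above Ythdc2 with no overlap, and Ythdc2 and Rad21l overlapped. In non-growing PRC2 cKO libraries Stag3 and Ythdc2 overlapped, and in growing ones Stag3 and Rad21l did.

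The next comparison asked whether loss of Eed changed these genes. No tested member passed in non-growing or in growing oocytes. Over all genes 0.311% passed in non-growing and 0.17% in growing oocytes, 44 and 24 genes, so a count of 0 of 4 members is close to that background. At an unadjusted p under 0.05 limma gave 0 members in non-growing and 1 in growing oocytes, out of 2316 and 1407 genes.

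The intervals show how large a change these data still allow. For Smc1b the ratio of cKO to control was 1.04 (95% interval 0.756 to 1.44) in non-growing and 1.01 (0.734 to 1.39) in growing oocytes. Stag3 gave 1.24 (0.780 to 1.98) and 1.38 (0.864 to 2.20), and Ythdc2 gave 0.925 (0.697 to 1.23) and 0.869 (0.654 to 1.15). Rad21l gave 1.14 (0.830 to 1.56) in non-growing oocytes. In growing oocytes its ratio was 1.43 (1.04 to 1.95), a log2 change of 0.51 with an unadjusted limma p of 0.0323 and an adjusted p of 0.474, higher in 2 of 2 libraries. The knockout effects were also compared between the stages. No member passed, against 0.0989% of all genes, and the largest of the 4 differences was 0.33 on the log2 scale, for Rad21l (95% interval -0.32 to 0.97, limma adjusted p = 0.538).

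Growing oocytes were then set against non-growing ones. Smc1b fell by 2.07 on the log2 scale in controls (SE 0.19, limma adjusted p = 0.000107) and by 2.11 in PRC2 cKO (SE 0.19, limma adjusted p = 9.73e-05), to 0.238 (95% interval 0.173 to 0.329) and 0.231 (0.168 to 0.319) of the non-growing level of TPM + 1. Stag3 fell by 0.76 in controls (SE 0.28, limma adjusted p = 0.0462), a call that ended, among other settings, with the pseudocount at 5, without the filter, under each of the 3 other scalings and without any 1 of the 4 non-growing libraries or of control growing replicate 1, with adjusted p between 0.0268 and 0.534 over all alternatives. In PRC2 cKO Stag3 was at -0.61 (limma adjusted p = 0.0961). Rad21l and Ythdc2 were at 0.03 and 0.20 in controls and at 0.36 and 0.11 in PRC2 cKO, with none passing.

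These counts have to be read against the whole table. In controls 54% of all tested genes passed as lower in growing oocytes and 2 of the 4 tested members did; in PRC2 cKO the figures were 46% and 1 of 4. The median gene moved by -0.67 in controls and -0.45 in PRC2 cKO. A group of provisional gene models, the TEC class of the annotation, took 2.26% to 2.57% of TPM in non-growing and 23.3% to 25.9% in growing PRC2 libraries, within a fixed total, and their part in these changes was not tested. With trimmed-mean scaling the median control change was -0.09, with quantile normalization -0.22 and with scaling to nuclear protein-coding genes -0.29. The split of all calls in controls went from 2346 higher and 7640 lower to 3967 and 4209 with trimmed-mean scaling, 3520 and 5116 with quantile normalization and 3291 and 5476 with protein-coding scaling. In PRC2 cKO it went from 2844 and 6516 to 4403 and 4184, 3646 and 5371, and 4076 and 4576.

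Smc1b kept its call in controls under these 3 scalings, at -1.32, -1.47 and -1.58. Relative to the median gene it stood at -1.40 in controls and -1.66 in PRC2 cKO, and Stag3 at -0.09 and -0.16. Ythdc2 became higher in growing control oocytes under all 3, at 0.83 with trimmed-mean scaling (limma adjusted p = 0.00957), 0.67 with quantile normalization (limma adjusted p = 0.0284) and 0.62 with protein-coding scaling (limma adjusted p = 0.0207). In PRC2 cKO it passed with trimmed-mean and protein-coding scaling, and so did Rad21l, at 0.74 and 0.69 (limma adjusted p = 0.011 and 0.0166). In bulk libraries, less RNA of a gene per cell and fewer cells that hold it cannot be told apart.

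**Figure D3:**
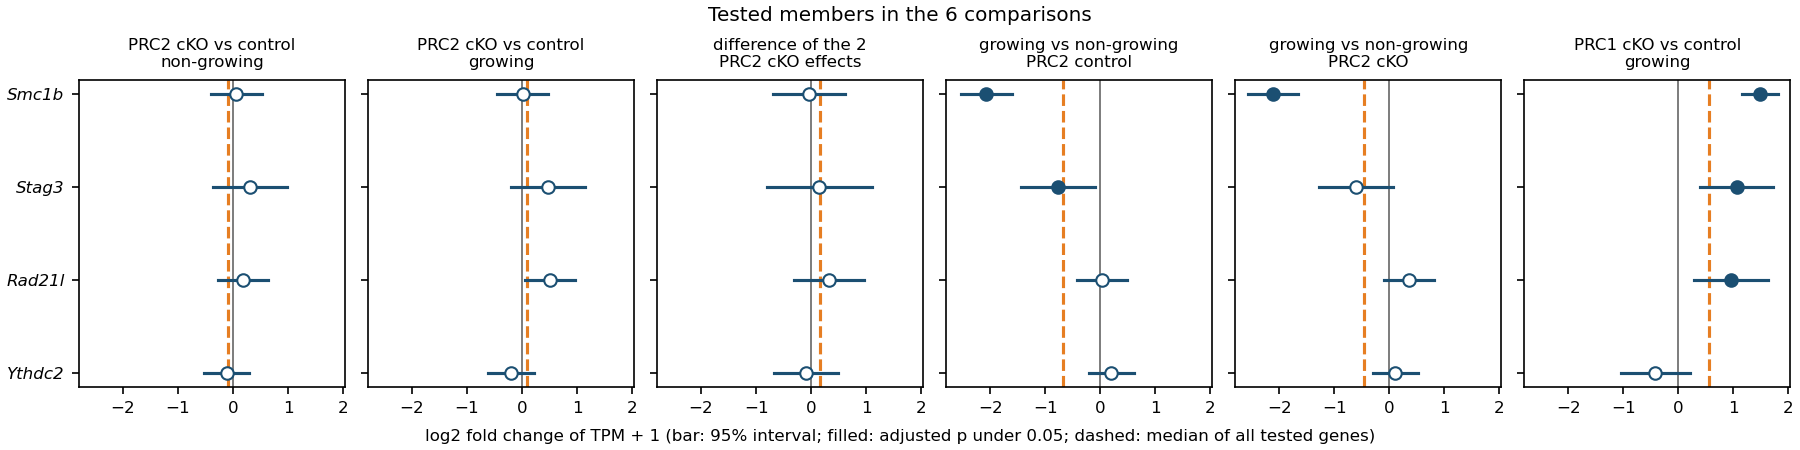
Log2 fold change of TPM + 1 for the 4 tested members in the 6 comparisons, 1 panel each, with 95% intervals. Filled points passed at an adjusted p under 0.05 and the dashed line is the median of all tested genes. Smc1b lies left of the median in both growth panels and right of it in PRC1 cKO, at 1.48 against 0.55.

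The last comparison set PRC1 cKO against control in growing oocytes. Smc1b rose by 1.48 on the log2 scale (SE 0.13, limma adjusted p = 0.00246), a ratio of 2.80 (95% interval 2.23 to 3.51). Stag3 rose by 1.06 (SE 0.26, limma adjusted p = 0.0246), a ratio of 2.09 (1.32 to 3.30). Rad21l rose by 0.96 (SE 0.26, limma adjusted p = 0.0347), a ratio of 1.95 (1.22 to 3.11). All 3 were higher in both knockout libraries than in both controls. The share of all genes that separated likewise is not given, so this separation is no result about the members. In all, 3 of the 4 tested members passed as higher, where 41.3% of all tested genes did. The median log2 change of the 4 was 1.01 beside 0.55 for all genes.

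Other scalings changed these calls as well. TEC models took 20.9% and 22.5% of TPM in controls and 11.0% and 14.9% in cKO, and the number of models at 1 TPM or more was 12313 and 12592 in controls and 15582 and 14940 in cKO, and the part of either in the calls was not tested. The split of all calls was 6176 higher and 964 lower, and became 5045 and 1515 with protein-coding scaling, 4061 and 2171 with trimmed-mean scaling and 2722 and 2636 with quantile normalization. The median gene then moved by 0.35, 0.16 and -0.04. Smc1b stayed called at 1.25, 1.02 and 1.17 in the same order, and with each library left out, between 1.43 and 1.54. Stag3 was at 0.86 (limma adjusted p = 0.0363), 0.67 (0.0534) and 0.37 (0.212), and Rad21l at 0.80 (0.0493), 0.64 (0.0649) and 0.14 (0.616). Both also lost their call, among other settings, without the filter and without PRC1 control replicate 1, control replicate 2 or cKO replicate 1, where Stag3 was at 0.98, 1.14 and 0.83 and Rad21l at 0.79, 1.13 and 0.72.

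**Figure D4:**
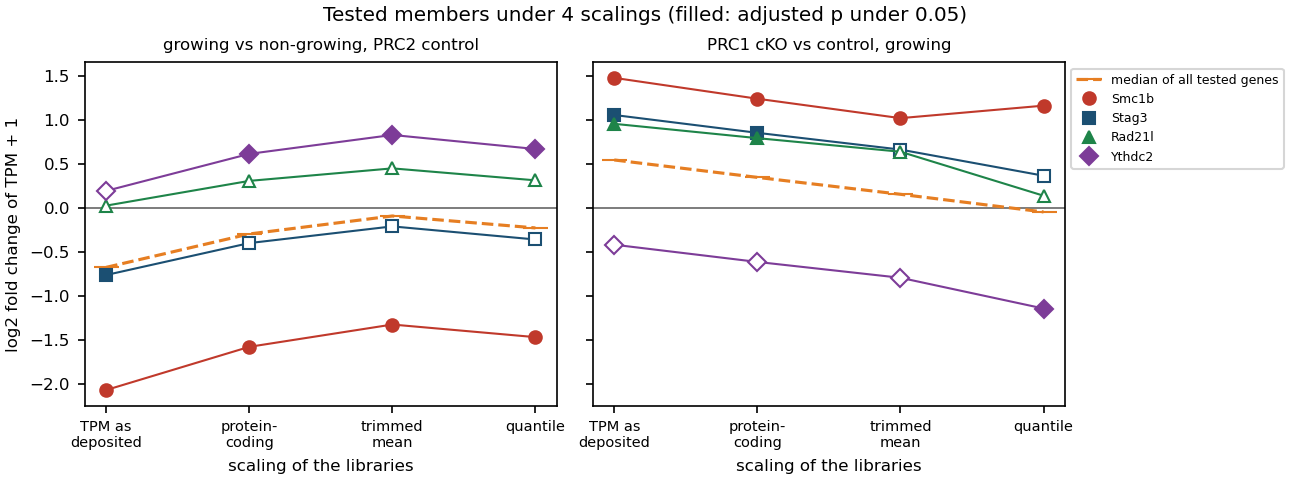
Log2 fold change of TPM + 1 of the 4 tested members under TPM as deposited and 3 other scalings, for growth in PRC2 controls (left) and PRC1 cKO (right). Filled symbols passed at an adjusted p under 0.05 and the dashed line joins the medians of all tested genes. Smc1b is filled at every scaling in both panels, while on the right Stag3 and Rad21l are filled for the first 2 scalings only, and are at 0.37 and 0.14 against a median of -0.04 with quantile normalization.

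For most of the 12 oocyte markers the PRC1 cKO and control libraries did not overlap, with cKO higher for some and lower for others. The markers are described without a test, and the share of all genes that separated likewise is not given. In the test of this comparison 41.3% of all genes passed as higher and 6.45% as lower. Figla and Sohlh1, transcription factors that are high in primordial follicles, were at 282 and 382 TPM and at 90.0 and 157 TPM in controls, and at 683 and 630.2 TPM and 986 and 598 TPM in cKO. Gdf9, a growth factor secreted by growing oocytes, was at 4864 and 5225 TPM in controls and 1572 and 2205 TPM in cKO. Smc1b, Figla and Sohlh1 were also higher in non-growing than in growing PRC2 controls, with Figla at 966 and 992 TPM against 362 and 302 TPM. Nobox, Lhx8, Ddx4 and Dazl had the directions of Figla in both comparisons, and Zp1 and Zp3 those of Gdf9. Ooep did not follow, as it was lower in growing PRC2 controls (557 and 500 TPM against 624 and 617 TPM). In PRC1 cKO Ooep was lower too, at 234 and 281 TPM against 486 and 532 TPM. Zp2 and Kit overlapped between PRC1 cKO and control. Summed levels of markers of other cell types were higher in PRC1 cKO, though not every marker was. Nr5a2, the highest granulosa marker in controls, was at 6.40 and 6.62 TPM there, against 3.77 and 4.04 TPM in cKO, and Upk3b, an epithelial one, at 0.27 and 0.29 TPM, against 0.15 and 0.16 TPM. Pecam1, the highest endothelial one in controls, was at 5.62 and 3.72 TPM, against 2.32 and 5.73 TPM. The 12 granulosa markers summed to 8.70 and 11.8 TPM in control and to 23.0 and 33.0 TPM in cKO, with 6 of 12 at 1 TPM or more in a cKO library, while the defining markers Foxl2 and Amh were at 0.24 TPM or less. The 7 immune markers summed to 14.2 and 15.2 TPM in the controls, against 36.7 and 43.2 TPM in cKO, nearly all of it C1qb, with Ptprc at 0.16 TPM or less. The 4 surface epithelium markers summed to 0.51 and 0.62 TPM in the controls, against 7.62 and 12.8 TPM in cKO, nearly all of it Krt7. The 9 stroma and theca markers summed to 0.36 and 0.82 TPM in the controls, against 2.32 and 4.74 TPM in cKO, with Col1a1 at 0.27 TPM or less. For the 6 endothelial markers the sums were 6.06 to 7.28 and 11.0 to 13.1 TPM, with Cdh5 at 0.10 TPM or less, and for the 5 erythroid markers 0.25 to 0.85 and 2.38 to 2.40 TPM. The part of oocyte stage or of other cells in the higher cohesin levels was not tested.

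Shares within a subunit class do not change when a library is rescaled by a constant. Smc1b made up 89.6% of the SMC1 transcripts (Smc1a plus Smc1b) in both non-growing control libraries, 90.6% and 90.3% in non-growing PRC2 cKO, 84.4% and 79.0% in growing control, and 84.4% and 85.2% in growing PRC2 cKO. PRC1 controls gave 80.7% and 83.6% and PRC1 cKO 92.0% and 93.3%. SMC1 transcripts of these oocytes were therefore mostly of the meiotic form in every library, with the mitotic form at its largest share in growing controls.

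The STAG class had another balance. Stag3 made up 17.6% and 16.1% in non-growing control, 23.8% and 21.5% in non-growing PRC2 cKO, 11.5% and 15.9% in growing control, and 15.9% and 22.4% in growing PRC2 cKO. In the PRC1 table its share was 18.7% and 23.5% in control and 41.8% and 35.1% in cKO. The share of Stag2, a mitotic STAG gene on the X chromosome, was 50.2% and 44.7% in PRC1 control and 16.7% and 17.9% in PRC1 cKO, the lowest of all 12 libraries. PRC1 cKO was the only group in which Stag2 was below both other STAG genes in both libraries.

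Among kleisins the mitotic gene Rad21 dominated, at 81.4% to 94.7% of kleisin transcripts. Rad21l made up 7.80% and 5.32% in non-growing control, 9.48% and 7.38% in non-growing PRC2 cKO, 11.9% and 12.1% in growing control, and 18.3% and 16.9% in growing PRC2 cKO. PRC1 control gave 9.19% and 13.1% and PRC1 cKO 15.7% and 14.1%. The Rec8 share was highest in PRC1 cKO, at 2.61% and 1.90%. Control and knockout libraries did not overlap in the Rad21l share of growing oocytes in either table, a description of 2 libraries a group. The 3 cohesin classes thus differed, with SMC1 mainly meiotic and the kleisins mainly mitotic by transcript level.

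**Figure D5:**
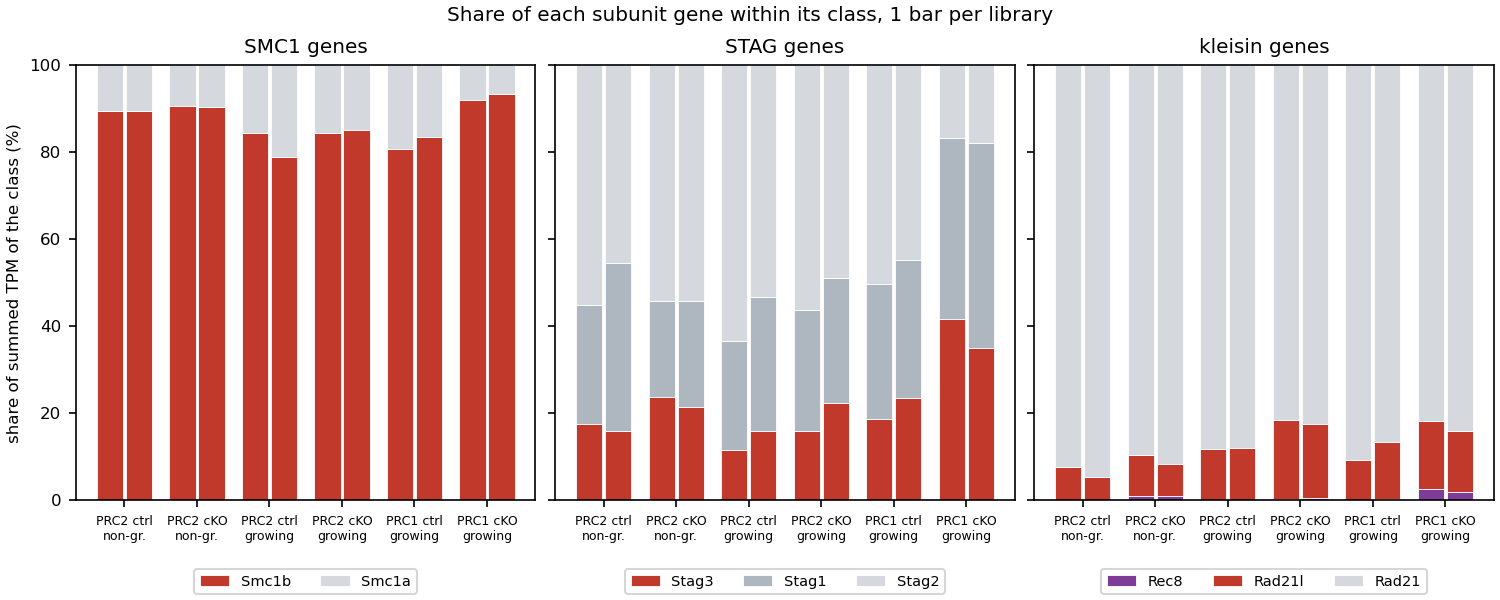
Share of each gene in the summed TPM of its cohesin class, as stacked bars from 0 to 100%, with 1 bar for each of the 12 libraries in 6 groups. Smc1b takes 79.0% to 93.3% of its class, Stag3 is largest in PRC1 cKO at 35.1% and 41.8%, and Rad21 takes most of the kleisin class everywhere.

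The mitotic and shared subunits were also tested. In growing against non-growing controls 4 of the 5 passed as lower and none as higher, beside 54% and 16.6% of all genes, Smc1a by -1.11 (SE 0.11, limma adjusted p = 0.000133), Rad21 by -0.86 (adjusted p = 0.00288), Stag1 by -0.80 (adjusted p = 0.0196) and Stag2 by -0.47 (adjusted p = 0.0378), beside a median gene of -0.67. With trimmed-mean scaling 1 passed as higher and none as lower, and with quantile normalization 1 in each direction. The calls of Rad21 and Stag1 ended under all 3 other scalings, that of Smc1a with trimmed-mean scaling and that of Stag2 under all 3 and without the filter. Stag1 also lost its call without non-growing control replicate 2, at -0.61, or growing control replicate 1, at -0.55, and Stag2 without non-growing control replicate 1, at -0.31, or either growing control, at -0.43 and -0.50. Smc3, the SMC partner shared by all cohesins, was at -0.19 (adjusted p = 0.077), but passed as higher with trimmed-mean scaling, at 0.55 (limma adjusted p = 0.00425), quantile normalization, at 0.44 (limma adjusted p = 0.00541), and protein-coding scaling, at 0.30 (limma adjusted p = 0.0184). The ratio of Smc1b to Smc3 was 5.15 and 5.07 in non-growing controls and 1.79 and 1.06 in growing controls, and it was 1.75 and 2.31 in PRC1 controls and 7.82 and 6.17 in PRC1 cKO. In PRC1 cKO, Rad21 rose by 0.80 (SE 0.21, limma adjusted p = 0.032) and Stag1 by 0.76 (SE 0.21, limma adjusted p = 0.0323), Stag2 fell by 0.92 (SE 0.23, limma adjusted p = 0.0251), and Smc1a, at 0.04, and Smc3, at -0.29, did not pass. These are 2 of 5 higher and 1 lower, beside 41.3% and 6.45% of all genes. The calls of Rad21 and Stag1 were lost under all 3 other scalings, that of Rad21 also without the filter. Without control replicate 1, control replicate 2 or cKO replicate 1 both lost their calls, with Rad21 at 0.80, 0.80 and 0.61 and Stag1 at 0.80, 0.72 and 0.72. Stag2 lost its call without either control library, at -0.79 and -1.06, and Smc1a was negative under all 3 other scalings.

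Ribc2, the neighbour that starts 114 bases from Smc1b on the opposite strand and shares no exon with it, was far lower. It was at 2.21 and 2.41 TPM in non-growing and 0.60 and 0.58 TPM in growing controls, and at 2.24 and 2.25 TPM and 0.95 and 0.90 TPM in the PRC2 cKO libraries of these stages. PRC1 controls were at 0.93 and 0.70 TPM beside 4.01 and 3.55 TPM in PRC1 cKO. As for Smc1b, non-growing libraries were above growing ones in the PRC2 table and PRC1 cKO above its control. Ribc2 was under 1 TPM in all growing libraries other than PRC1 cKO, so it passed the filter only through the groups where it was high, and no test is given. No source used here states whether reads were counted by strand. Ribc2 was looked at because of its position.

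Upstream regulators and partners of meiotic entry were read from a list of 19 genes. None of the 12 that were tested passed in either PRC2 knockout comparison. In growing against non-growing controls 2 of 12 passed as higher and 8 as lower, beside 16.6% and 54% of all genes (4 and 8 with trimmed-mean scaling, 3 and 8 with quantile normalization), with a median of -1.10 beside -0.67 for all genes. Of the 12, 4 were under 1 TPM in both libraries of a stage and had passed the filter through other groups, and of the remaining 8, 1 passed as higher and 5 as lower. Nanos2, an RNA-binding repressor of meiosis in male germ cells, is one of those 4 and was at 0.87 and 0.96 TPM in non-growing and 12.9 and 14.3 TPM in growing controls. Rbm46, an RNA-binding partner of MEIOC and YTHDC2, fell by 2.94, from 34.0 and 32.3 TPM to 4.72 and 2.46 TPM (limma adjusted p = 7.7e-05).

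In PRC1 cKO 10 of the 16 tested genes of this list passed as higher and 1 as lower, beside 41.3% and 6.45% of all genes, with a median of 0.99 beside 0.55 for all genes. The split was 7 and 2 with trimmed-mean scaling and 3 and 1 with quantile normalization. However, 5 of the 16, Dmrt1, E2f6, Rarb, Msx1 and Msx2, were under 1 TPM in both controls and entered the test only through the knockout libraries, so they could only be called higher. Of the remaining 11, 5 passed as higher and 1 as lower. Rbm46 rose by 2.46, from 8.52 and 12.7 TPM to 66.4 and 57.6 TPM (limma adjusted p = 0.00271). Rbm46 kept its call under every alternative run. The genes selected by their knockout level are given as values only. Dmrt1, a transcription factor that acts on Stra8 in fetal germ cells, was at 0.14 and 0.05 TPM in the controls, against 9.49 and 5.80 TPM in cKO. E2f6, a DNA-binding subunit of the variant PRC1 complex, was at 0.64 and 0.59 TPM in controls and at 2.58 and 2.87 TPM in cKO. Rarb, a retinoic acid receptor gene, was at 0.49 and 0.13 TPM and at 2.09 and 2.89 TPM.

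A list of 18 genes held those that write, read or erase m6A, the RNA mark with which YTH proteins are associated. It also held Xrn1, an exoribonuclease, which fell by 1.80 with growth in controls (limma adjusted p = 0.000101) and is in the counts below. Of 17 tested, none passed in the PRC2 knockouts, and 1 passed as higher and 7 as lower with growth, beside 16.6% and 54% of all genes (5 and 3 with trimmed-mean scaling, 3 and 4 with quantile normalization). Mettl3, the m6A methyltransferase, fell by 1.08 (limma adjusted p = 8.1e-05), beside a median gene of -0.67. In PRC1 cKO 4 of 18 passed as higher and 1 as lower, beside 41.3% and 6.45% of all genes (2 and 2 with trimmed-mean scaling, 0 and 2 with quantile normalization), with a list median of 0.35 beside 0.55. Igf2bp1, one of the 4, was under 1 TPM in both controls and could only be called higher, and without it 3 of 17 passed as higher. Igf2bp2, an m6A reader, fell by 1.12 (limma adjusted p = 0.00508), and Fto, an eraser, rose by 1.27 (limma adjusted p = 0.0177), a call lost without the filter, with quantile normalization and without PRC1 control replicate 1, at 1.05.

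Of 11 genes for cohesin loading, acetylation, release and cleavage, none passed in the PRC2 knockouts. With growth 4 passed as higher and 5 as lower, beside 16.6% and 54% of all genes (6 and 0 with trimmed-mean scaling, 5 and 1 with quantile normalization), among them Pttg1, the inhibitor of separase, which rose by 1.16 (limma adjusted p = 0.000107). In PRC1 cKO 2 passed as higher and 1 as lower, beside 41.3% and 6.45% of all genes (0 and 2 with trimmed-mean scaling, 0 and 1 with quantile normalization). Pttg1 fell by 0.81, from 1617 and 1461 TPM to 704 and 1085 TPM (limma adjusted p = 0.0384), and Wapl, which releases cohesin, rose by 0.68 (limma adjusted p = 0.0258). Pttg1 lost this call without the filter, with quantile normalization, with eBayes without trend and without either control library, at -0.74 and -0.89. Wapl lost it under all 3 other scalings and with any 1 of the 4 libraries left out, at 0.80 and 0.56 without control replicates 1 and 2 and at 0.70 and 0.67 without cKO replicates 1 and 2. Of the 14 tested genes that protect or set centromeric cohesion, Aurkc, the meiotic Aurora kinase, rose by 3.30 with growth (limma adjusted p = 0.000129), and in all 2 passed as higher and 8 as lower, again beside 16.6% and 54% (7 and 2 with trimmed-mean scaling, 6 and 3 with quantile normalization). In PRC1 cKO 4 of 15 passed as higher and 2 as lower, again beside 41.3% and 6.45% (0 and 5 with trimmed-mean scaling, 1 and 5 with quantile normalization), and Aurkc fell by 1.04, from 159 and 150 TPM to 67.8 and 81.5 TPM (limma adjusted p = 0.00598).

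Genes with the profile most like each member were found by Pearson correlation of log2(TPM + 1) over the 8 PRC2 libraries, among 7503 tested genes with a mean of at least 5 TPM. The 8 libraries fall into a non-growing and a growing set, which most genes follow, so r is only a description. For Smc1b the closest were Fos (r = 0.999), Iah1 (0.998) and Rpl12 (0.998), for Stag3 Zfp397 (0.967), Gbe1 (0.961) and Rassf1 (0.959), for Ythdc2 Fam229b (0.939), Arpc3 (0.931) and Cmc1 (0.904), and for Rad21l Aph1c (0.850), Ttll4 (0.835) and Snhg14 (0.819). No other cohesin gene was among the 3 closest of any member.

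Set beside each other, with the tables normalized separately and without a test, the growing PRC1 cKO libraries stood between the stages of the PRC2 controls for Smc1b, at 257 and 239 TPM beside 382 and 371 TPM in non-growing and 112 and 70.6 TPM in growing oocytes. Stag3, Rad21l, Rec8 and Meioc were higher in PRC1 cKO than in any PRC2 control library of either stage, at 7.61, 2.97, 0.40 and 0.81 TPM or more beside highest PRC2 control values of 4.41, 1.57, 0 and 0.55 TPM. Rec8 and Meioc were under 1 TPM in all of these libraries. PRC1 cKO libraries held 15582 and 14940 models at 1 TPM or more, beside 11747 to 12583 in PRC2 controls. Ythdc2 was lower in both PRC1 cKO libraries than in any PRC2 control library, at 3.65 and 3.96 TPM beside 4.92 TPM or more. The share of all genes that stood likewise is not given, so these placements are no result about the members. Growing controls also differed between the tables. Stag3 was at 3.59 and 4.13 TPM in PRC1 controls and at 1.52 and 2.64 TPM in growing PRC2 controls. Meioc was lower in the PRC1 controls, and Rad21l, Smc1b and Ythdc2 overlapped.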

How the data were processed

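RNA-seq was measured in 12 mouse oocyte libraries, grouped by their titles. Per the labels' protocols, paired reads of 150 bases were sequenced from NEBNext Single Cell/Low Input libraries. The authors deposited TPM values in 2 tables. RSEM 1.3.3, Subread 2.0.3, SAMtools, HISAT2 and Trim Galore 0.6.10 were used on GRCm38/mm10, per the submitters' processing notes. The sources used here do not give which of them made the TPM values or how strand and multiply matching reads were treated.

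Tests were made within a table with limma 3.58.1 in R 4.3.3 on log2(TPM + 1), two-sided, for genes at 1 TPM or more in at least 2 libraries, with all groups in one fit, eBayes with a trend and Benjamini-Hochberg adjustment at 0.05. TPM is no count, so no count model was used. Gene coordinates were those of GENCODE vM21, and promoter sequences those of RefSeq. Alternatives were 2 pseudocounts (0.1 and 5), no filter, 3 scalings, eBayes without trend, a replicate block, each library left out and a fit of the 2 groups compared. The members and gene lists were chosen with earlier results of these data known. Named genes were all members, all cohesin subunits, up to 4 passing genes of a list by smallest p, and the 3 most correlated genes.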

Additional observations from a re-analysis of the deposited data

How the results depend on the processing

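Smc1b kept its direction and its call with growth in both genotypes and in PRC1 cKO under all alternatives run. Over all genes, the count for PRC2 cKO in non-growing oocytes, 44, became 87 with the pseudocount at 5, 91 without the filter, 26 with trimmed-mean scaling and 20 with the replicate block, and 6 to 48 with a library left out. The count for growing oocytes, 24, became 50 without the filter, 12 with eBayes without trend and 11 with only the 2 groups compared, and 9 to 28 with a library left out. That for the difference of the effects, 14, became 7 with the pseudocount at 5 and 5 with the replicate block, and 2 to 922 with a library left out. The PRC1 count, 7140, was 3747 to 5865 with a library left out. No tested member passed in the 2 PRC2 knockout comparisons or their difference under any alternative run.

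The members called with growth in controls, 2, both lower, became 1 with the pseudocount at 5 and 1 with the replicate block. Under each of the 3 other scalings the count stayed at 2, but with 1 lower and 1 higher. There Ythdc2 passed as higher and Stag3 had lost its call. Without the filter the 2 were Smc1b and Meioc, both lower. In PRC2 cKO, 1 became 3 without the filter, where Smc1b, Meioc and Rec8 were all lower. It also became 3 with trimmed-mean scaling and with protein-coding scaling, where Smc1b was lower and Ythdc2 and Rad21l were higher. In PRC1 cKO, 3 became 1 with trimmed-mean scaling and 1 with the replicate block. With quantile normalization it became 2, Smc1b higher and Ythdc2 lower. Without the filter it became 2 of 7, Smc1b and Meioc, both higher. Stag3 and Rad21l had lost their calls in all 4 of these settings.

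Differences near 0 changed sign. Ythdc2 in non-growing PRC2 cKO was at 0.044 with quantile normalization (-0.25 to 0.023 with a library left out), Smc1b in growing PRC2 cKO at -0.058 with trimmed-mean scaling (-0.31 to 0.35), and the difference of effects for Stag3 at -0.16 with quantile normalization (-0.16 to 0.46). With a library left out the differences of effects ranged from -0.23 to 0.044 for Ythdc2 and from -0.37 to 0.29 for Smc1b, and the growth change from -0.13 to 0.19 for Rad21l in controls and from -0.028 to 0.24 for Ythdc2 in PRC2 cKO. Others were larger. With growth Smc3, not called before, passed as higher at 0.44, 0.55 and 0.30 under quantile, trimmed-mean and protein-coding scaling, and Stag2, called as lower before, was at 0.086 and 0.22 under the first 2. In PRC1 cKO Smc1a was at -0.46, -0.40 and -0.19 under the same 3 scalings (-0.15 to 0.23 with a library left out), and Cdca5 at -0.013 with trimmed-mean scaling.

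The replicate numbers are only numbers: nothing in the labels pairs the libraries, and deviations of same-numbered libraries correlated at -0.03 to 0.26 in the PRC2 table and at -0.27 in the PRC1 table. With the replicate block Stag3 lost its call with growth in controls (limma adjusted p = 0.0528), and Stag3 and Rad21l lost theirs in PRC1 cKO (limma adjusted p = 0.0737 and 0.075). TPM keeps no depth, so what depth limits cannot be stated, and 2 libraries per group limit the precision. The causes of these changes were not tested.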

Other observations

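The SMC complexes outside cohesin, condensin and SMC5/6, fold chromosomes and act in their repair. Of 14 genes for their subunits, all tested, 2 passed as higher and 9 as lower in growing against non-growing controls, beside 16.6% and 54% of all genes (3 and 4 with both trimmed-mean scaling and quantile normalization), with a median of -0.67, the same as for all genes. Smc5, a core subunit of the SMC5/6 complex that acts in DNA repair, fell by 2.20 on the log2 scale, from 38.4 and 37.4 TPM to 7.76 and 7.22 TPM (limma adjusted p = 1.6e-05). In PRC1 cKO it rose by 1.57, from 7.53 and 8.65 TPM to 30.4 and 22.1 TPM (SE 0.23, limma adjusted p = 0.00633), a call kept under every alternative run. Its partner Smc6 was at 68.9 and 58.3 TPM in PRC1 control and at 94.7 and 78.9 TPM in cKO. In PRC1 cKO 2 of the 14 passed as higher and none as lower, beside 41.3% and 6.45% of all genes, with a median of 0.02 beside 0.55 for all genes, and 1 passed as higher and 5 as lower with trimmed-mean scaling or quantile normalization. No gene of this list passed in either PRC2 knockout comparison.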
